A study of Homo sapiens with 12 samples.

Results

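NCI-H1703, an established line of human non-small-cell lung cancer, was compared after SAHA and after its DMSO vehicle by RNA sequencing of 3 libraries per group, 6 of the 12 libraries of the study. SAHA, also called vorinostat, is a hydroxamate that inhibits the zinc-dependent histone deacetylases (HDACs). The cells were treated for 24 h with SAHA, or with 0.1% DMSO alone, and the labels call them epithelial cells of the lung. The protocol lists SAHA at 2.5, 10 and 40 µM without tying a dose to the sequenced cells, so no value below belongs to a known dose. The title of the series names lung adenocarcinoma and lung squamous carcinoma, and the labels do not say which of these the line stands for. The other 6 libraries come from the line NCI-H1299 with the same pair of treatments and enter where the responses of the lines are compared, in the scaling of CPM and in 1 alternative for the level classes. All genes of the H1703 table were considered: of 58302, 24870 had no count in any of the 6 libraries, and 17273 had enough counts for a test.

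Histone acetylation is set by acetyltransferases that add acetyl groups to lysines of histone tails and by deacetylases that remove them, and acetylated chromatin is generally more open to transcription. Deacetylase inhibitors therefore raise acetylation across the genome, and they also act on acetylated proteins that are not histones. In cancer cells they are known for stopping the cell cycle, for inducing the CDK inhibitor p21, and for switching on genes of other tissues that are silent in the cell of origin. They also repress many highly transcribed genes.

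The libraries held 15.2M to 18.3M counts with DMSO and 16.7M to 19.4M with SAHA, against a stated median of 55M reads per sample. Genes with 10 or more counts numbered 16146 ± 179 (SD, n = 3) with DMSO and 17348 ± 197 with SAHA. Mitochondrially encoded RNA took 5.88 ± 0.418% of the counts with DMSO and 9.57 ± 1.19% with SAHA. The groups did not overlap in either measure, and an exact two-sided permutation test gave 0.1 for both, the smallest p that 3 against 3 libraries allow. The labels do not state whether replicate libraries came from separate cultures, and the p-values cover only the spread among these libraries, which may be technical. One passage of the labels names a directional library kit and another an un-stranded library, so values of genes that overlap another gene in the table are uncertain. Among the genes named below these are ALDOC, BCL2L1, BCL2L2, BRD2, C3, CACNA1D, CBX7, CDC37, CENPA, CP, CTGF, DNAJB1, FADS2, FTH1, GABARAP, GAPDH, GLA, H2AFY2, HDAC7, HLA-B, IGFL2-AS1, ITGA1, JPH1, KRT7, KRT8, KRT18, KRT81, MICA, MT-ATP6, NEUROD1, POLR2L, PSMB10, RPL6, RPL10, RRM2, SIRT2, SREBF1, SRSF9, TAGLN, TFPI2, TGM2, THY1, TP53I3, TUBA1B, TXNRD1, VAMP1 and VIM. In bulk RNA, a change in the number of cells of a kind and a change in RNA per cell cannot be told apart.

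Marker genes of the labelled epithelial identity were present in part. The simple-epithelium keratins KRT8 (1232 ± 113 CPM, SD, n = 3) and KRT18 (689.5 ± 60.3 CPM) were abundant with DMSO, and EPCAM, the epithelial adhesion molecule, was low (2.81 ± 0.766 CPM). CPM are counts per M counts of the library, after TMM scaling. The squamous keratins KRT5 and KRT6A lay at 0.0688 and 0.0426 CPM and the alveolar genes NKX2-1 and SFTPC at 0.11 and 0.196 CPM, while SFTPB and the desmosomal DSG3 had no count with DMSO. These 6 markers were at or near 0 before treatment, but other members of their lists were not. Of the 23 squamous markers 10 lay at 1 CPM or more, SOX2 and DSC3 among them, and the list summed to between 532 and 584 CPM. Of the 20 adenocarcinoma and alveolar markers 9 did, with a sum of between 2679 and 2874 CPM.

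SAHA moved most of the measured transcriptome, and about as many genes rose as fell. Of the 17273 genes, 6002 (34.7%) rose and 5639 (32.6%) fell at an adjusted p under 0.05 by edgeR's quasi-likelihood test with Benjamini-Hochberg adjustment, the threshold for every call below. Among the genes named as called below, 17 lost their call without at least 1 of the 6 libraries (BCL2, CCNE1, CTSL, DPYSL3, DSC3, EIF4EBP1, FBL, FTH1, GABARAP, PGK1, QPRT, RPL6, RPS9, SRSF9, TNNT1, TXNRD1 and VAMP1), with adjusted p up to 0.183. The 2 directions differed in size. The median log2 fold change was 1.15 among the genes that rose and -0.92 among those that fell, with 0.02 over all genes. At 2-fold or more, 3372 genes (19.5%) rose and 2574 (14.9%) fell. At 8-fold the counts were 1032 and 281, and at 64-fold 294 and 9. This excess of large rises came from genes under 1 CPM with DMSO, many of which reach the test only through SAHA. Of the 15052 genes at 1 CPM or more, 1858 rose and 2505 fell at least 2-fold, 164 and 270 at least 8-fold, and 6 and 8 at least 64-fold. Rises and falls without overlap between the 3 DMSO and the 3 SAHA libraries made up 36.3% and 35.9% of the genes.

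The size and direction of a change went with the level of the gene before treatment. Every gene called among those with no DMSO count (173) or up to 0.1 CPM (256) was higher, which the filter on low counts fixes, since such genes reach the test only through their SAHA libraries. From 0.1 to 1 CPM, 61.4% of 1792 genes tested rose and 3.85% fell, still shaped by that filter. Above it the balance turned: from 1 to 10 CPM 32.6% rose and 26.4% fell, from 10 to 100 CPM 28.9% rose and 39.9% fell, and from 100 to 1000 CPM 26.8% rose and 47.6% fell. Of the 79 genes at 1000 CPM or more, 35.4% rose and 39.2% fell. Over all genes with a count in a class, tested or not, the median log2 ratio with 0.5 CPM added to both groups was -0.14 from 10 to 100 CPM and -0.22 from 100 to 1000 CPM. Both remained below 0 when the classes were set by 1 DMSO library, by the DMSO libraries of H1299 or by FPKM, the deposited value per transcript length.

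**Figure D1:**
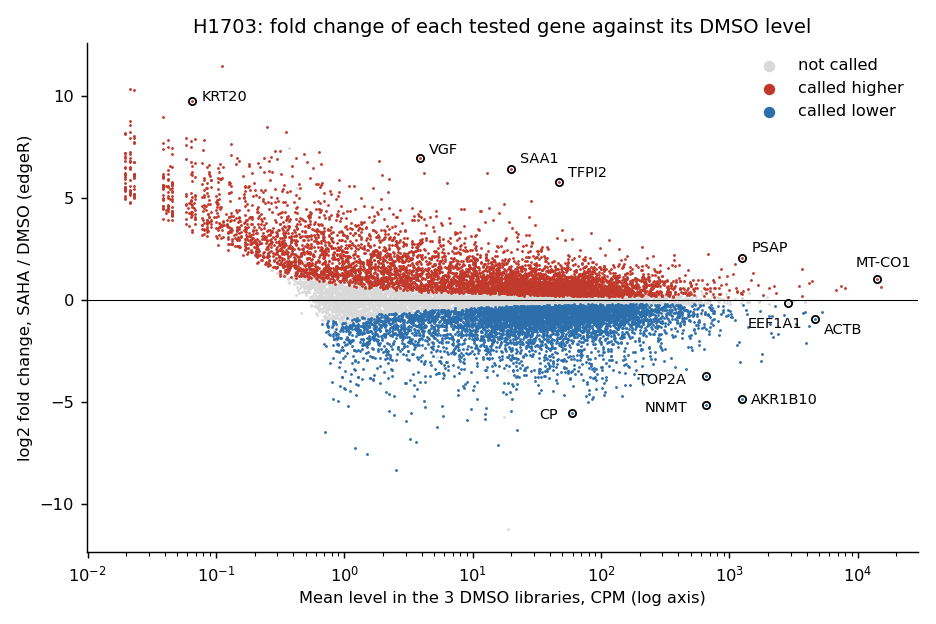
Log2 fold change of SAHA against DMSO in H1703 (vertical axis) against mean CPM with DMSO (horizontal log axis), coloured by call. Of the 17273 genes tested, the 173 without a DMSO count are not drawn. Large rises start from low levels, and the falls become more frequent than the rises between 10 and 1000 CPM.

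**Figure D2:**
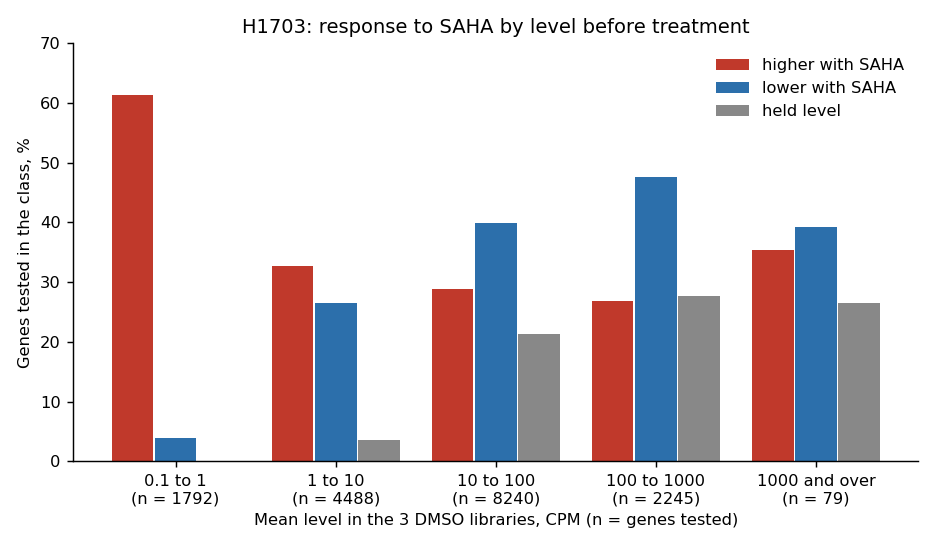
Share of genes that rose, fell or were held level after SAHA, by class of mean CPM with DMSO. From 100 to 1000 CPM 26.8% rose and 47.6% fell. The classes up to 0.1 CPM contain rises alone because of the filter on low counts and are not drawn.

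A further set of genes was held level, meaning that the 95% interval of the log2 fold change lay within 0.5 of 0. There were 2557 such genes (14.8%), 412 of them with a small change that passed the test, and 3487 genes were neither called nor held. The share depends on depth: it was 3.48% from 1 to 10 CPM and 27.7% from 100 to 1000 CPM, where the median SE fell from 0.24 to 0.086. The translation elongation factor EEF1A1 measured 3139, 2758 and 2635 CPM with DMSO and 2593, 2343 and 2753 CPM with SAHA (log2 fold change -0.13 ± 0.09, SE; 95% interval -0.33 to 0.07). ANXA2, a membrane-binding annexin, had a log2 fold change of -0.04 ± 0.07 from 3125 ± 172 CPM, and vimentin, VIM, an intermediate filament gene, one of -0.04 ± 0.06 from 1001 ± 32.6 CPM. The target enzymes HDAC1 (-0.04 ± 0.07, from 113 ± 5.77 CPM) and HDAC2 (-0.01 ± 0.07, from 93.3 ± 3.27 CPM) were held as well.

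In absolute terms the largest gains were mitochondrial RNA and a few very abundant genes. MT-CO1 (ENSG00000198804, GRCh38 chromosome MT, 5904 to 7445), a cytochrome oxidase subunit, measured 13762, 15639 and 13276 CPM with DMSO and 27506, 25539 and 32883 CPM with SAHA, 1 library per value. It rose 2.04-fold (log2 1.03 ± 0.11, adjusted p = 2.3e-05), and every SAHA library lay above every DMSO library. AKR1B1, an aldose reductase, rose 2.88-fold, from 3681 ± 272 to 10470.4 ± 250.4 CPM. PKM, pyruvate kinase of glycolysis, rose from 4152 ± 285 to 7434 ± 152 CPM, and FTL, the ferritin light chain that stores iron, from 7949 ± 1074 to 11839 ± 1306 CPM.

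Among the largest losses in CPM were ALDH1A1, keratin, actin, tubulin and glycolysis genes. ACTB (ENSG00000075624, GRCh38 chromosome 7, 5527151 to 5563784), the cytoplasmic actin, fell from 4821, 4652 and 4399 to 2441, 2462 and 2259.6 CPM (log2 -0.94 ± 0.07, adjusted p = 2.3e-06), with no overlap. The tubulin genes TUBA1B (1758 ± 83.8 to 224 ± 17.7 CPM) and TUBB (2371 ± 114 to 745 ± 30.3 CPM) fell 7.75-fold and 3.15-fold. ENO1, an enolase, fell from 3270.3 ± 193 to 1425 ± 42.1 CPM, ALDH1A1, a retinaldehyde dehydrogenase, from 4151 ± 215 to 1735 ± 67.0 CPM, and the hair keratin KRT81 from 3971 ± 367 to 934 ± 114 CPM. KRT81 overlaps KRT86 in the table, so reads of the pair may be shared. ACTB is a common reference for normalizing expression. Of 15 commonly used reference genes, 3 rose (GUSB, SDHA and PGK1) and 8 fell, with a median log2 fold change of -0.42, and GAPDH itself fell from 5253 ± 407 to 3428 ± 332 CPM.

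The annotation classes gave different shares. Among genes at 1 CPM or more with DMSO, 31.3% of 12919 protein-coding genes rose and 37.5% fell. For 358 long intergenic non-coding RNAs (lincRNAs) these shares were 25.1% and 35.8%, and for 584 processed pseudogenes 12.7% and 39.2%. Pseudogenes share reads with their parent genes, as HMGB1P5 (121 ± 9.11 to 21.3 ± 0.635 CPM) does with HMGB1, and their values are uncertain. Of 32 mitochondrially encoded genes 27 rose and 0 fell. LincRNAs with 10 or more counts numbered 499 ± 31.5 per DMSO library and 643 ± 44.8 per SAHA library, protein-coding genes 13368 ± 73.5 and 14351 ± 77.7, and processed pseudogenes 690.0 ± 15.7 and 655 ± 32.6. LINC00511, a lincRNA transcript, fell from 58.4 ± 3.03 to 14.9 ± 1.51 CPM, and IGFL2-AS1 rose from 9.95 ± 0.821 to 54.9 ± 1.67 CPM.

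Some genes crossed the limit of detection. With no count in any DMSO library and 10 or more counts in every SAHA library, 193 genes were gained, 155 of them protein-coding and 23 lincRNAs. The reverse held for 6 genes. The gained genes belong to many tissues. KRTAP2-3, a keratin-associated protein of hair, had no DMSO count and, after SAHA, counts of 644, 842 and 461, at least 609.9-fold higher when the DMSO group is set at a floor of 3 counts. CYP4F2, a fatty acid hydroxylase of the liver, reached 291, 292 and 266 counts (at least 266-fold), CALB1, a neuronal calcium buffer, 155, 174 and 188 (at least 162-fold), DES, the muscle intermediate filament desmin, 86, 115 and 96, and NEUROD1, a transcription factor of neurons and islets, 73, 76 and 81. Of the lost genes, HNF4G, a nuclear receptor of gut and liver, went from 25, 39 and 54 counts to 0, at least 41.9-fold lower. INO80B-WBP1, a read-through transcript, had 430, 27 and 394 counts with DMSO and overlaps its parent genes, so its loss is uncertain. The others included CPN1, BMPR1B-DT and NTRK3-AS1.

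Cell division genes fell, and the mitosis list had the lowest median of the 73 gene lists described here. Of 32 mitosis genes tested 32 fell, where 32.6% of all genes did, by a median of -3.45 on the log2 scale, and 31 of them at least 2-fold. Their summed level went from between 3766 and 4025 CPM with DMSO to between 499 and 525 CPM with SAHA. On the scale per length, their median level was 13.5 FPKM (fragments scaled by gene length and library depth) before and 0.962 FPKM after. Of 36 DNA replication genes 34 fell and 0 rose, with a median of -2.04, and CDC7 and PRIM2 did not pass. CDK1, the kinase that drives entry into mitosis, went from 113, 114 and 119.8 CPM to 17.0, 14.5 and 13.8 CPM (-2.92 ± 0.10, adjusted p = 2.2e-08). CDC20, the activator of the anaphase-promoting complex, fell 9.25-fold, and BUB1, a spindle checkpoint kinase, 8.69-fold. No library of one group reached the other in any of these 3 genes. PCNA, the replication clamp and the most abundant gene of its list, fell only 1.69-fold, from 472 ± 19.6 to 276 ± 6.35 CPM.

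Nucleotide synthesis genes fell as well. Of 24 nucleotide synthesis genes 19 fell and 0 rose. TK1, thymidine kinase, measured 260.0, 265 and 258 CPM with DMSO and 37.0, 39.2 and 29.4 CPM with SAHA (-2.87 ± 0.11, adjusted p = 3.9e-08), without overlap, and RRM2, the small subunit of ribonucleotide reductase, fell 16.6-fold. Of 20 genes of the G1 cyclin and RB-E2F circuit 15 fell and 2 rose, CCND2 and CCNE1. CCND2 had 0, 0 and 1 counts with DMSO and reached the test only through SAHA. At 1 CPM or more with DMSO 15 of 19 fell and 1 rose. CCNE1, cyclin E1, went from 34.6 ± 1.38 to 42.2 ± 0.353 CPM. Of 5 CDK inhibitors tested 3 rose and 2 fell, and CDKN2A and CDKN2B had no count in any of the 6 libraries. CDKN1A, the gene of p21, measured 219, 217 and 231 CPM with DMSO and 702, 762 and 720.3 CPM with SAHA (1.73 ± 0.07, adjusted p = 5.8e-08), and the groups did not overlap. Of 22 targets of p53, 10 rose and 7 fell, where 34.7% and 32.6% of all genes did. GDF15, a stress cytokine, went up from 224 ± 7.08 to 451 ± 48.7 CPM. TP53I3, a quinone oxidoreductase, went down from 72.8 ± 2.85 to 35.6 ± 5.77 CPM.

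The promoters of the division genes were searched for short motifs known from cell-cycle genes. Both strands of RefSeq windows from 250 bases before to 50 bases after each start were read. The cell cycle homology region (TTTGAA or TTCGAA) occurred in 66.7% of 33 windows of 27 mitosis genes and the CCAAT box (ATTGG) in 78.8%, against 16.4% and 34.6% of all 35116 windows of the same length in the table. For 39 windows of 31 DNA replication genes the E2F motif (TTGGCGC or TTCCCGC) occurred in 59.0%, against 9.23% of all windows, and the cell cycle homology region in 5.13%. Over the 16718 windows of genes tested, the shares were 12.02% for the cell cycle homology region, 34.5% for the CCAAT box and 13.1% for the E2F motif. Over the 2516 windows of genes at least 2-fold lower they were 16.7%, 35.5% and 16.2%. The list shares thus describe genes chosen by function, and the part of the motifs in the falls was not tested. The E2F motif can share bases with a CCAAT box. A match describes the letters and is not a bound site. The windows of TOP2A (ENSG00000131747, GRCh38 chromosome 17, 40388516 to 40417950) and KIF11 (ENSG00000138160, GRCh38 chromosome 10, 92593286 to 92655395) are printed because these are the called mitosis genes with the smallest adjusted p. TOP2A encodes the topoisomerase that untangles chromosomes and KIF11 a kinesin that separates spindle poles. They lie at chr17:40417951-40418146 (minus strand) and chr10:92592880-92593129 (plus strand) of GRCh38.p14, from RefSeq, are written 5′ to 3′ and stop before the transcribed part, and capitals mark the cell cycle homology regions and CCAAT boxes.
TOP2A: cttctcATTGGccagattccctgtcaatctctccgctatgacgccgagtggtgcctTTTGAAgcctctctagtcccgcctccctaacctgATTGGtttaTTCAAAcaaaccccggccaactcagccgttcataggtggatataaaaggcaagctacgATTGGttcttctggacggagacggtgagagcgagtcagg
KIF11: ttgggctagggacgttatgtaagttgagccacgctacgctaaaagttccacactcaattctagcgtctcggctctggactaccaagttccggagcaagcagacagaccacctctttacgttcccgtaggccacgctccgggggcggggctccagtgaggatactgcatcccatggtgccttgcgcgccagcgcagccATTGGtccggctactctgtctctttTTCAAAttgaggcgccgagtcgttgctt
TOP2A holds 2 cell cycle homology matches and 3 CCAAT matches, and KIF11 1 of each.

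Splicing and ribosome biogenesis genes mostly fell. Of 30 splicing factors 23 fell and 1 rose, SRSF9, with a median of -0.87. SRSF3, an SR protein that selects exons, measured 242, 236 and 236 CPM with DMSO and 77.7, 79.8 and 78.1 CPM with SAHA (-1.58 ± 0.07, adjusted p = 7.6e-08), and the groups did not overlap. HNRNPL, a splicing repressor, fell 3.40-fold. Of 30 genes of RNA polymerase II and Mediator 11 fell and 8 rose (5 rose without DMSO replicate 3), shares near those over all genes. The largest polymerase subunit, POLR2A, fell from 348 ± 11.7 to 131 ± 15.5 CPM, and the small subunit POLR2L rose from 437 ± 9.77 to 645 ± 112 CPM. Of 26 ribosome biogenesis genes 21 fell and 1 rose, FBL, the methyltransferase fibrillarin. UBTF, which binds rDNA for RNA polymerase I, fell 3.88-fold, and nucleolin, NCL, 2.56-fold.

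The ribosomal proteins themselves did not follow. Of 30 cytosolic ribosomal protein genes 13 rose and 3 fell (RPL6, RPL10 and RPS9), 12 were held level, and the median was 0.29. These counts depended on 1 library: without DMSO replicate 3 they were 8 and 5. Translation factors again fell more often, 14 of 27 against 3 that rose (EEF2, EIF4EBP1 and EIF4EBP2). From 100 to 1000 CPM 47.6% of all genes tested fell, and this list was not compared with genes of matched level. EIF4G2, an initiation scaffold, fell 4.50-fold from 1149 ± 60.1 CPM, and EIF4EBP2, a brake on cap-dependent initiation, rose 3.13-fold. Of 20 aminoacyl-tRNA synthetases, which charge tRNAs, 14 fell and 5 rose. With scaling to library totals 1 rose, and without DMSO replicate 3 the rises were 2. IARS, for isoleucine, fell from 313 ± 9.57 to 127 ± 14.5 CPM, and SARS, for serine, rose from 117 ± 2.79 to 169 ± 4.21 CPM.

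Among chromatin genes, most writers and readers of acetylation fell, and the deacetylases that SAHA inhibits divided. Of 14 acetyltransferases and BET readers 12 fell and 0 rose, with a median of -0.73. CREBBP, the acetyltransferase CBP, measured 103, 94.7 and 103 CPM with DMSO and 43.0, 39.0 and 40.9 CPM with SAHA (-1.27 ± 0.08, adjusted p = 8.4e-07), without overlap. KAT6B fell 3.86-fold, and the BET reader BRD2 (-0.75 ± 0.13) fell less. Of 11 zinc-dependent deacetylases 4 rose (HDAC3, HDAC5, HDAC9 and HDAC11) and 2 fell (HDAC6 and HDAC7). Their median was -0.01 and, with DESeq2's size factors, 0.01. Of 22 DNA methylation and Polycomb genes 13 fell and 4 rose, among them JARID2, RING1 and CBX7. EZH2, the H3K27 methyltransferase, fell from 38.2 ± 3.0 to 21.7 ± 2.12 CPM, and CBX7, a Polycomb reader, rose from 9.11 ± 1.11 to 34.0 ± 2.32 CPM.

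Clustered histone genes mostly rose. Of 12 clustered histone genes tested, out of 16 listed, 10 rose and 1 fell, HIST2H2AC. HIST1H1C, a linker histone, measured 31.7, 29.8 and 30.7 CPM with DMSO and 385, 443 and 358 CPM with SAHA (3.70 ± 0.10, adjusted p = 8.0e-09), every SAHA library being higher. HIST1H4H, a core histone H4, rose 10.4-fold. Most clustered histone transcripts lack poly(A) tails and are near-identical copies, so their values are uncertain. Of the variants, H2AFY2, macroH2A2, fell from 34.3 ± 1.80 to 1.60 ± 0.0786 CPM, and CENPA, the centromeric H3, from 30.5 ± 1.52 to 2.24 ± 0.556 CPM.

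Mitochondrially encoded mRNAs rose, while nuclear genes of the same organelle went both ways or fell. Of 13 mitochondrially encoded mRNAs 12 rose and 0 fell (median 0.80), with MT-ATP6 not passing, while 12 of 31 nuclear respiratory chain genes rose and 10 fell. Of 26 mitochondrial ribosomal protein genes 16 fell and 1 rose, MRPS10. MT-ND1, a subunit of complex I, measured 1497, 1653 and 1399 CPM with DMSO and 3479.7, 3276 and 4471 CPM with SAHA, and CYC1, cytochrome c1 of the nuclear genome, fell from 227 ± 4.25 to 119.9 ± 13.8 CPM. The mitochondrial share of all counts moved with these mRNAs, and its part in the result was not tested. Copies of mitochondrial sequence in the nucleus can share these reads.

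Central carbon metabolism went both ways, with large changes of single enzymes. Of 21 glycolysis genes 11 rose and 9 fell. ALDOC, the brain aldolase, rose from 4.6, 4.49 and 3.85 to 58.2, 52.4 and 52.5 CPM (3.67 ± 0.12, adjusted p = 1.6e-08), and PFKFB3, which makes the activator of phosphofructokinase, fell from 279 ± 21.2 to 75.8 ± 5.81 CPM. Of 17 tricarboxylic acid cycle genes 8 rose (5 with scaling to library totals) and 5 fell, of 24 cholesterol genes 10 and 7, and of 23 fatty acid genes 10 and 8. In lipid synthesis, SREBF1, the master regulator of fatty acid genes, rose 3.34-fold to 1175 ± 77.5 CPM, whereas FADS2, a desaturase, fell 2.68-fold and SCD, another, 1.67-fold.

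In one-carbon and NAD metabolism more genes fell than rose. Of 18 serine, one-carbon and glutathione genes 12 fell and 3 rose (CTH, GSR and GPX4), with a median of -0.80. SLC7A11, the cystine importer that feeds glutathione synthesis, measured 227, 233 and 251 CPM with DMSO and 47.0, 45.9 and 48.2 CPM with SAHA (-2.32 ± 0.08, adjusted p = 1.9e-08). Its groups were far apart. GPX4, which reduces lipid peroxides, rose from 149.5 ± 8.82 to 326 ± 30.2 CPM. Of 15 nicotinamide and NAD genes 9 fell and 3 rose (QPRT, SIRT2 and SIRT6). NNMT (ENSG00000166741, GRCh38 chromosome 11, 114257787 to 114313285), which methylates nicotinamide, dropped from 704, 668 and 601 to 18.2, 20.5 and 17.4 CPM, 34.8-fold lower (-5.12 ± 0.11, adjusted p = 3.5e-09).

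Proteasome genes mostly fell, heat shock genes fell more often than they rose, and lysosome genes mostly rose. Of 30 proteasome genes 18 fell and 3 rose, with a median of -0.32, and 13 were held level. Of 23 heat shock genes 12 fell and 5 rose (HSPA1A, HSPA1B, DNAJB1, DNAJC3 and CDC37). The most abundant, HSP90AB1, fell from 2163 ± 52.9 to 1257 ± 37.8 CPM. Of all genes tested, 39.9% fell from 10 to 100 CPM and 47.6% from 100 to 1000 CPM. Both lists were not compared with genes of matched level. Of 26 lysosome genes, by contrast, 20 rose and 4 fell (CTSL, CTSS, CTSZ and GLA), with a median of 0.89, and their summed level went from between 4809 and 4871 CPM to between 11250.2 and 12003 CPM. PSAP (ENSG00000197746, GRCh38 chromosome 10, 71816298 to 71851375), the precursor of sphingolipid activator proteins, measured 1267, 1265 and 1237 CPM with DMSO and 5478, 5312 and 5002 CPM with SAHA (2.08 ± 0.07, adjusted p = 1.7e-08), 4.24-fold higher in groups that did not overlap. The protease CTSB (1.71 ± 0.07), the sialidase NEU1 (1.94 ± 0.10) and the membrane protein LAMP2 (1.33 ± 0.09) rose as well. Of 24 autophagy genes 14 rose and 2 fell, ULK2 and GABARAP.

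The unfolded protein response divided, with 11 of 23 genes rising and 6 falling. HSPA5, the chaperone BiP, rose from 963 ± 41.7 to 2191 ± 48.3 CPM, and XBP1, a transcription factor of the same response, fell from 93.7 ± 6.50 to 36.8 ± 4.25 CPM. Their median was -0.00 and, with DESeq2's size factors, 0.01.

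Metallothioneins, small proteins that bind zinc and copper, rose in the 5 members tested of 9 listed, 3 of them at 1 CPM or more with DMSO. MT1E, MT1G, MT1H and MT1M had no count in any of the 6 libraries. MT2A, the most abundant, measured 398, 336 and 405 CPM with DMSO and 1328, 879 and 1405 CPM with SAHA (1.68 ± 0.19, adjusted p = 2.4e-04), and MT1X rose 6.15-fold. These are near-identical copies whose reads may be split. The MT1X promoter (chr16:56682220-56682423, GRCh38.p14, plus strand, RefSeq) is printed because zinc induces these genes through short metal response elements. It stops before the transcribed part, and capitals mark the core TGCGCNC, found on either strand.
MT1X: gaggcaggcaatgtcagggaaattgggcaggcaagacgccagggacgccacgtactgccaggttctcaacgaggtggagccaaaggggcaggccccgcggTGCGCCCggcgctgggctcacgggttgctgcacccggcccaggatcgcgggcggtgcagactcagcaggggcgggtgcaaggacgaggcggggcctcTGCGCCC
The core occurs 2 times in the window, and it is common, being found in 19.97% of all windows of the table and in 28.1% of those of genes tested.

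Genes of the NRF2 antioxidant programme mostly fell. Of 24 targets 14 fell and 4 rose (TXNRD1, SRXN1, FTL and FTH1, the first and last near the threshold), with a median of -0.30. Their levels with DMSO were high, at a median of 60.2 FPKM, against 36.1 FPKM with SAHA. Their summed level overlapped between the groups, at 25278 to 27285 CPM with DMSO and 24329 to 27527 CPM with SAHA. AKR1B10 (ENSG00000198074, GRCh38 chromosome 7, 134527592 to 134541408), an aldo-keto reductase, measured 1297, 1203 and 1248 CPM with DMSO and 38.2, 51.6 and 40.8 CPM with SAHA (-4.82 ± 0.12, adjusted p = 7.1e-09). The quinone reductase NQO1 fell from 835 ± 7.85 to 255 ± 23.2 CPM, and AKR1C3, one of several near-identical reductases, from 692 ± 46.6 to 243 ± 5.72 CPM. TKT (-1.19 ± 0.06) and PGD (-1.29 ± 0.10) of the pentose phosphate pathway fell as well, and KEAP1, which targets NRF2 for degradation, fell 2.93-fold. Of 21 aldehyde and carbonyl enzymes 13 fell and 6 rose, among them ALDH3A1 from 456 ± 17.1 down to 42.9 ± 4.53 CPM. The summed level of this list went the other way. It was between 10535 and 11321 CPM with DMSO and between 13625 and 14219 CPM with SAHA. Of 15 ABC transporters 7 rose and 6 fell (5 and 6 of 13 at 1 CPM or more), and ABCC2, an exporter of drug conjugates, fell 9.81-fold from 376 ± 13.2 CPM.

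Single cell death genes changed strongly, while the counts of the lists, apart from the pro-apoptotic rises, lay near the 34.7% that rose and the 32.6% that fell over all genes. Of 24 pro-apoptotic genes 11 rose and 8 fell. BIK, a BH3-only protein, measured 1.28, 1.11 and 0.963 CPM with DMSO and 24.4, 23.2 and 22.3 CPM with SAHA (4.39 ± 0.16, adjusted p = 2.8e-08), and BMF, another, rose 3.82-fold. Of 10 anti-apoptotic genes 3 rose (MCL1, BIRC2 and BIRC3) and 4 fell (BCL2, BCL2L1, BCL2L2 and CFLAR). BIRC3, an inhibitor of apoptosis downstream of NF-kB, went from 113, 121 and 113 to 840.2, 868 and 945 CPM (2.95 ± 0.08, adjusted p = 8.4e-09), with a wide gap between the groups.

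**Figure D3:**
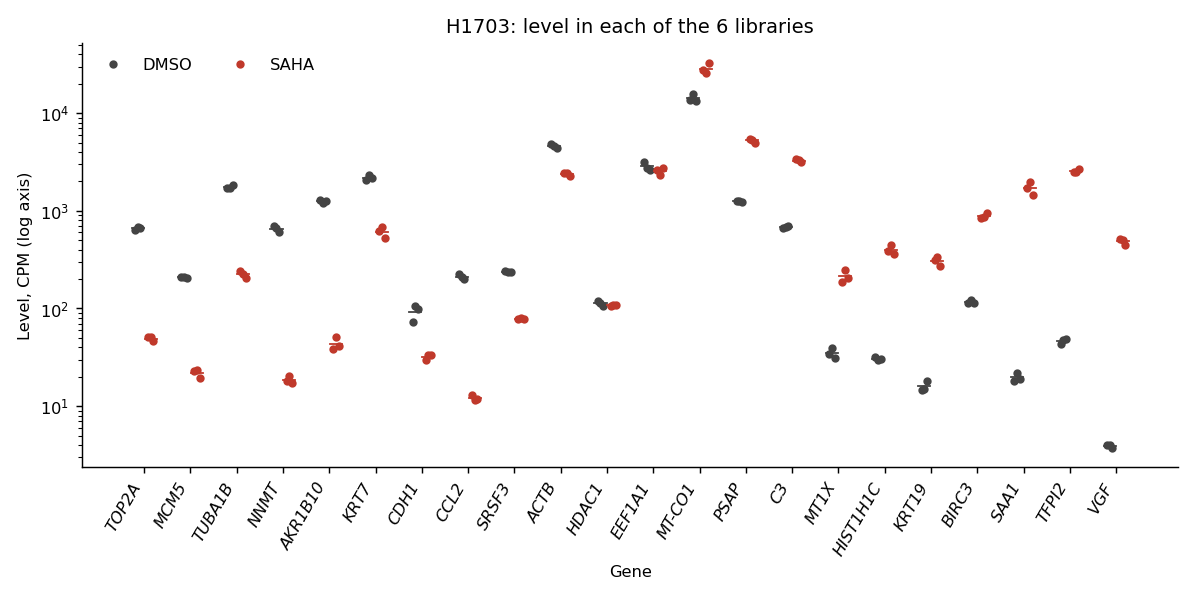
CPM of 22 genes in each of the 6 libraries (log axis), DMSO and SAHA as separate points. In most of the genes that fell or rose the 3 libraries of a group lie close together and apart from the other group, while HDAC1 and EEF1A1 overlap.

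Neural and endocrine genes rose, many of them from very low levels. Of 28 neuronal cytoskeleton and axon genes tested 22 rose and 2 fell (DPYSL3 and NRCAM), and of 25 synaptic genes 19 rose and 3 fell, VAMP1 and CPLX2 among them. Some members passed the filter only through SAHA. Among members at 1 CPM or more with DMSO, 16 of 22 axonal genes rose with 2 falling, and 14 of 20 synaptic genes rose with 3 falling. CPLX2, a complexin that gates vesicle fusion, went against its list, from 155, 160.2 and 156 CPM to 17.2, 19.4 and 17.3 CPM (-3.11 ± 0.08, adjusted p = 8.4e-09). Of 26 voltage-gated channel genes 17 rose and 3 fell, the calcium channel genes CACNA1D and CACNA1H among them, but at 1 CPM or more these were 7 and 3 of 16.

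Granins and prohormone-processing genes, which load dense-core vesicles, rose with none falling. Of 25 listed 18 were tested, 16 rose and 0 fell, and of 9 at 1 CPM or more 8 rose. SST and CARTPT had no count in any of the 6 libraries. PCSK1N, an inhibitor of prohormone convertase, measured 86.4, 78.7 and 87.3 CPM with DMSO and 857, 929 and 664 CPM with SAHA (3.3 ± 0.13, adjusted p = 7.0e-08). CHGA, chromogranin A, rose from 0.601 ± 0.221 to 30.7 ± 3.20 CPM, CHGB from 32 ± 2.28 to 155 ± 12.7 CPM, and CPE, a carboxypeptidase of hormone maturation, from 35.9 ± 3.78 to 157 ± 5.08 CPM.

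Single epithelial genes moved both ways. Of 23 junction and keratin genes 9 rose and 9 fell, 7 and 9 of the 21 at 1 CPM or more. KRT19, a simple-epithelium keratin, measured 14.6, 15.1 and 18.2 CPM with DMSO and 315, 337 and 274 CPM with SAHA (4.29 ± 0.12, adjusted p = 1.0e-08), and KRT7, another, fell from 2066, 2306 and 2175 to 628, 687 and 526 CPM (-1.81 ± 0.10). The groups did not overlap for either keratin, in opposite directions, and KRT7 overlaps other keratin genes of the cluster. CDH1, E-cadherin, fell from 92.4 ± 17.2 to 32.1 ± 2.37 CPM. Of 20 mesenchymal genes 4 rose (CDH2, FN1, SNAI1 and THY1) and 7 fell, with a median of -0.01 and, with DESeq2's size factors, 0.01. FN1, fibronectin, rose 2.79-fold to 1302 ± 88.9 CPM, and TAGLN, transgelin of contractile cells, fell 4.16-fold. Of 13 squamous markers tested out of 23, 8 rose and 2 fell (SOX2 and DSC3), and of 10 adenocarcinoma and alveolar markers out of 20, 3 rose and 4 fell. At 1 CPM or more these counts were 5 and 2 of 10, and 2 and 4 of 9.

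Integrins mostly rose, and matrix and actin genes went both ways. Of 17 integrins 11 rose and 4 fell, and of the 16 at 1 CPM or more 10 and 4. ITGA5, the fibronectin receptor chain, rose 2.55-fold to 398 ± 22.1 CPM, ITGA1, a collagen receptor chain, from 6.41 ± 0.670 to 48.0 ± 2.75 CPM, and ITGB5 fell from 411 ± 15.1 to 171 ± 8.04 CPM. Of 28 collagen and matrix genes 13 rose and 8 fell (11 and 8 of 26 at 1 CPM or more), with LAMB3, a laminin chain, up 5.62-fold and COL5A2, a fibrillar collagen, down 4.8-fold. Of 25 actin and contractile genes 5 rose and 8 fell. TNS3, tensin 3 of focal adhesions, had the smallest adjusted p of the falls among genes at 1000 CPM or more, going from 1202 ± 48.0 to 146 ± 1.34 CPM (-3.02 ± 0.07, adjusted p = 4.8e-09). TGM2, a protein-crosslinking transglutaminase, rose 3.41-fold to 3688 ± 125 CPM.

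MAPK feedback and immediate early genes mostly rose. Of 19 MAPK feedback genes 14 rose and 2 fell, and of 21 AP-1 and immediate early genes 14 rose and 4 fell, 11 and 4 of the 18 at 1 CPM or more. DUSP5, a phosphatase of nuclear ERK, measured 70.7, 66.4 and 67.4 CPM with DMSO and 394, 374 and 351 CPM with SAHA (2.47 ± 0.08, adjusted p = 1.4e-08). JUN rose 3.42-fold and JUND 3.43-fold, and FOSL2 fell from 508 ± 27.6 to 309 ± 26.9 CPM. Of 22 YAP and TEAD targets 8 rose and 10 fell, yet CTGF, a secreted matrix-cell regulator, rose from 29.0, 28.4 and 27.8 to 858, 768 and 866 CPM (4.89 ± 0.09, adjusted p = 2.7e-09). Of 27 receptor tyrosine kinases 16 rose and 8 fell, but at 1 CPM or more these were 8 and 8 of 19. NTRK3, a neurotrophin receptor, fell from 242 ± 10.7 to 41.9 ± 1.31 CPM.

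Of the developmental pathways, Notch genes had 9 rises and 3 falls of 23, WNT genes 15 and 8 of 33, and TGF-beta and BMP genes 14 and 11 of 35. At 1 CPM or more the counts were 5 and 3 of 19, 13 and 8 of 30, and 11 and 11 of 32. The Notch and the TGF-beta and BMP rises were near the 34.7% over all genes. The secreted WNT antagonists DKK1 (327 ± 5.36 to 645 ± 35.2 CPM) and DKK3 (62.0 ± 1.60 to 255 ± 3.34 CPM) rose and the WNT receptor FZD2 fell (-1.28 ± 0.08). TGFBR2, a TGF-beta receptor, rose 2.85-fold to 728 ± 10.3 CPM.

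Immune genes divided by class. Of 11 MHC class II genes tested, 11 rose, 4 of them from 1 CPM or more. Members with no DMSO count reached the test only through SAHA and could only rise. The median was 4.38 over the members tested and 0.90 over those at 1 CPM or more. CD74, the invariant chain, measured 1.02, 1.34 and 2.20 CPM with DMSO and 3.93, 3.14 and 4.73 CPM with SAHA. Of 17 class I presentation genes 7 rose and 6 fell, with a median of 0.10 (-0.00 with scaling to library totals). HLA-B rose from 22.7 ± 2.19 to 168 ± 6.88 CPM and the immunoproteasome subunit PSMB10 fell from 25.5 ± 0.453 to 4.06 ± 1.52 CPM. HLA genes are near-identical copies, and their values are uncertain. Of 29 interferon-stimulated genes 15 fell and 7 rose, with a median of -0.86. OAS3, an antiviral oligoadenylate synthetase, fell 2.54-fold, and OASL, its relative, rose 6.47-fold. Of 14 checkpoint and NK ligand genes 9 rose and 1 fell, PDCD1LG2, with the stress ligand MICA up from 38.3 ± 1.26 to 161 ± 7.10 CPM.

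Secreted inflammatory genes moved both ways. Of 27 cytokine, chemokine and NF-kB genes 10 rose and 12 fell. CCL2, which attracts monocytes, fell from 225, 211 and 199 to 13, 11.4 and 11.9 CPM (-4.11 ± 0.09, adjusted p = 4.3e-09), and CCL20, which attracts dendritic and Th17 cells, rose from 19.2 ± 0.726 to 268 ± 4.70 CPM. CXCL5, a neutrophil chemokine, was already at 2034 ± 55.5 CPM and rose to 3043 ± 104 CPM. SAA1, an acute-phase protein, measured 18.3, 21.9 and 19.0 CPM with DMSO and 1699, 1965 and 1439.7 CPM with SAHA (6.45 ± 0.15, adjusted p = 7.4e-09). Its SAHA libraries were far above DMSO and spread among themselves.

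Of 27 complement and coagulation genes 13 rose and 7 fell, with a median log2 fold change of 0.54. At 1 CPM or more with DMSO 12 of 25 rose and 7 fell, with a median of 0.23. The summed level of the list went from between 3107 and 3145 CPM to between 9442 and 9612 CPM. TFPI2 (ENSG00000105825, GRCh38 chromosome 7, 93885397 to 93890991), a serine protease inhibitor of matrix and coagulation proteases, measured 43.7, 47.1 and 49.2 CPM with DMSO and 2492, 2477 and 2656 CPM with SAHA, 55.2-fold higher (5.79 ± 0.09, adjusted p = 9.8e-10). C3, the central complement component, rose from 682 ± 13.1 to 3268 ± 116 CPM and overlaps GPR108.

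Of the 73 lists, 9 had shares of rises and of falls that both lay within 10 percentage points of those over all genes. They were the lists of RNA polymerase II and Mediator, nuclear respiratory chain subunits, cholesterol, fatty acids, anti-apoptotic genes, adenocarcinoma and alveolar markers, epithelial junctions and keratins, TGF-beta and BMP, and class I presentation. Their counts are no result about these lists. Several others lay just outside these limits, among them p53 targets, YAP and TEAD targets, cytokines, collagens and matrix, and ABC transporters. Little can be read from their counts either.

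**Figure D4:**
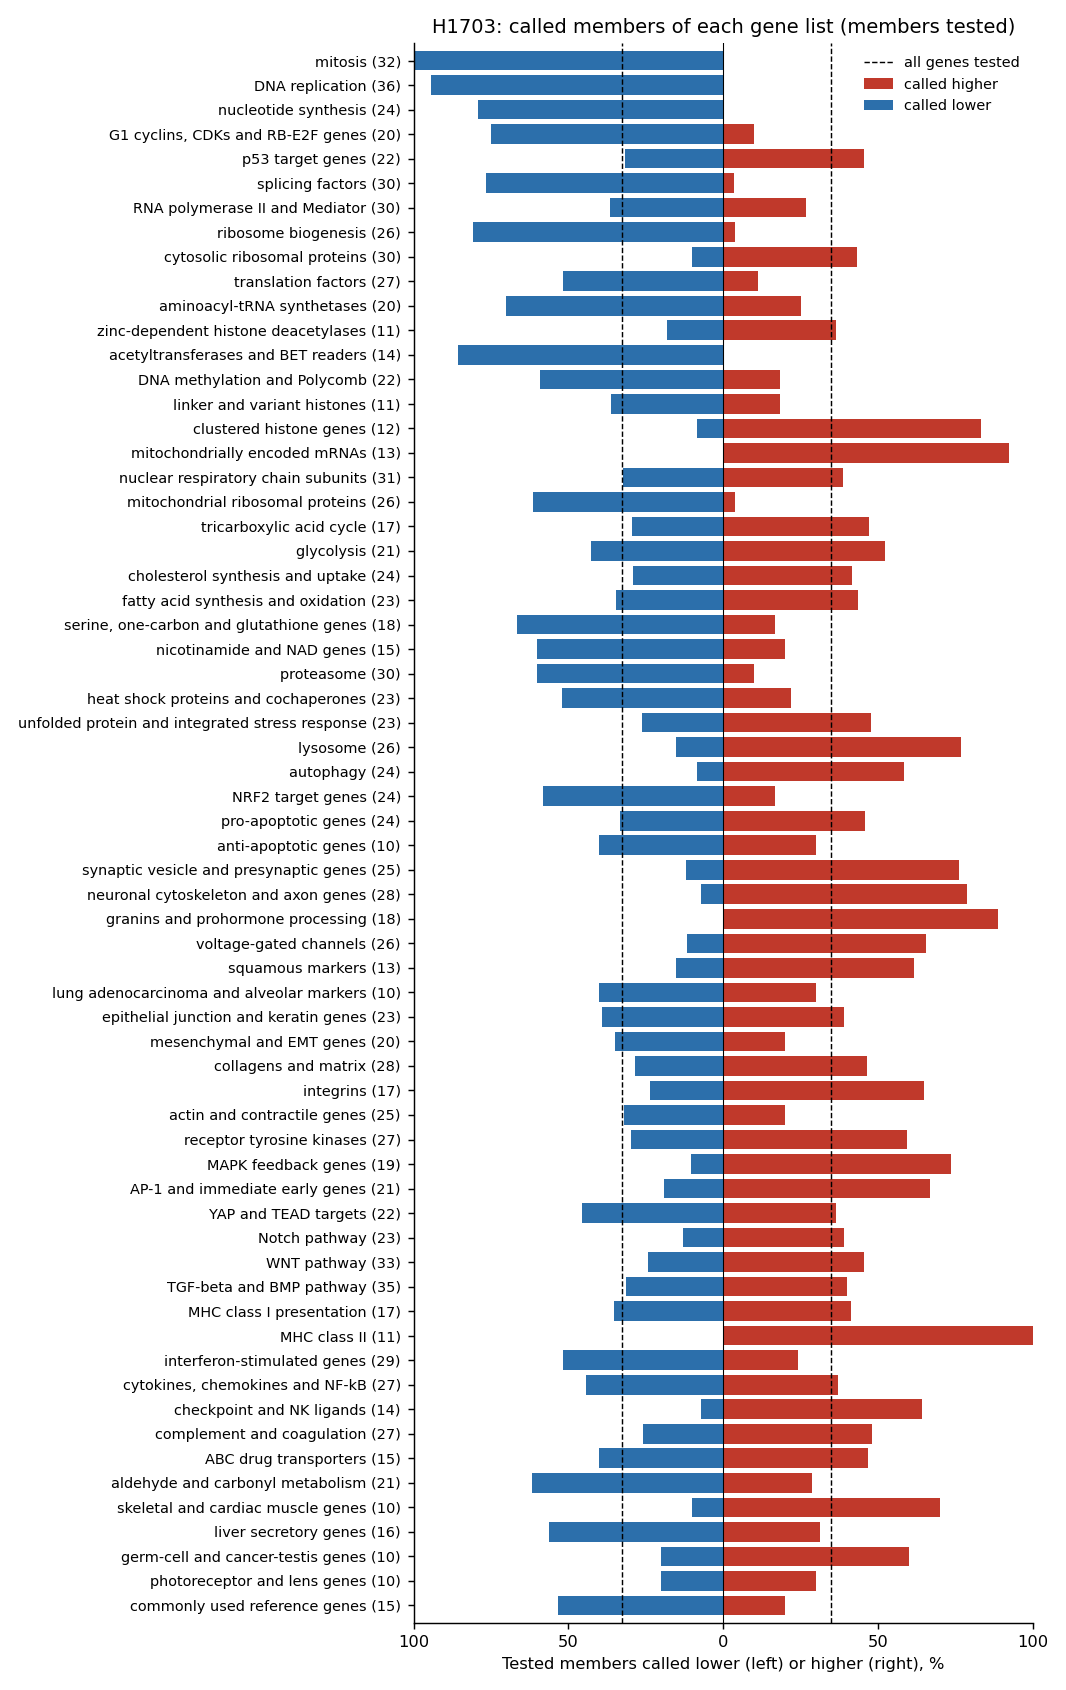
Percentage of tested members called lower (left) or higher (right) after SAHA in each gene list, ordered by theme. Dashed lines mark the shares over all genes tested, and lists with few members tested are not drawn. The mitosis list has 32 falls of 32, the lysosome list 20 rises of 26, and glycolysis 11 rises and 9 falls of 21.

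Tissue-restricted genes were mostly too low to test, and those tested had often passed the filter through SAHA. Of 32 muscle genes 10 were tested, 7 rose and 1 fell, TNNT1. Of 32 germ-cell genes 10 were tested, 6 rose and 2 fell (1 fell without DMSO replicate 2). At 1 CPM or more these counts were 3 and 1 of 5, and 1 and 2 of 5. Liver secretory genes went the other way. Of 32 listed 16 were tested, 9 fell and 5 rose, and at 1 CPM or more 9 of 12 fell and 2 rose. FGB, the fibrinogen beta chain, had 235, 335 and 182 counts with DMSO and 3, 2 and 0 with SAHA. CP, the copper carrier ceruloplasmin, fell from 59.0 ± 4.69 to 1.24 ± 0.142 CPM (-5.54 ± 0.14, adjusted p = 6.9e-09), and FGA, another fibrinogen chain, from 21 ± 1.88 to 2.95 ± 0.411 CPM, while SERPINA1, alpha-1 antitrypsin, rose from 2.23 ± 0.341 to 17.6 ± 1.25 CPM. FGB, CP and FGA were thus expressed before treatment and were at or near the floor, or several-fold lower, with SAHA.

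Markers of other cell types that could be in a culture were counted beside these changes. None of the lymphoid or endothelial markers reached 1 CPM with DMSO, so those tested may have passed the filter only through SAHA. Of 12 lymphoid markers 2 were tested and both were higher, with a summed level of 0.255 to 1.28 CPM with DMSO and 5.35 to 6.33 CPM with SAHA, and MS4A1 was at 0 throughout. Of 12 myeloid markers 7 were tested and 5 rose, 1 of the 3 at 1 CPM or more (31.7 to 51.3 CPM, then 108 to 120.0 CPM), and PTPRC, the pan-leukocyte antigen, measured 0.0389 and 0.0657 CPM. Of 8 endothelial markers 3 were tested and 3 were higher (0.963 to 1.58 CPM, then 7.79 to 10.2 CPM), with EMCN at 0. Of 8 fibroblast markers 5 were tested and 4 rose, 1 of the 2 at 1 CPM or more (64 to 73.4 CPM, then 116 to 129 CPM). Of 10 ciliated-cell markers 9 were tested, 5 rose and 1 fell, the beta-tubulin TUBB4B, with a median log2 fold change of 0.92. At 1 CPM or more 3 of 5 rose and 1 fell. The summed level of the list went down all the same, from between 702 and 733 CPM to between 235 and 273 CPM. TUBB4B was its only called fall, so the sum does not describe most of its members. These levels moved with the treatment, and their part in the immune and tissue-restricted results was not tested.

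The response differed in part from that of H1299, whose libraries have their own DMSO controls. In 1 fit over 12 libraries, the log2 fold change of H1703 minus that of H1299 was above 0 for 2623 of 19105 genes (13.7%) and below 0 for 4049 (21.2%). Whether both lines received the same dose is not given, so line and dose cannot be told apart in these differences. By count of members, the NRF2 list mostly fell in H1703 and mostly rose in H1299. Of 24 targets 0 were above and 18 below, and in H1299 alone 18 rose and 2 fell, where 33.3% and 30.4% of all genes did. NQO1 rose in H1299 from 212 ± 2.99 to 368 ± 27.8 CPM (0.74 ± 0.08), a difference between the lines of -2.51 ± 0.11 (edgeR adjusted p = 4.0e-09). AKR1C3, at 692 ± 46.6 CPM in H1703, started from 0.432 ± 0.241 CPM in H1299 and reached 19.8 ± 0.528 CPM there (difference -7.01 ± 0.21). TKT gave -2.01 ± 0.11. NQO1, AKR1C3 and TKT thus fell in H1703 and rose in H1299, from lower levels in H1299.

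Division genes fell in both lines and further in H1703. All 32 mitosis genes were called lower in H1299 as well, and 30 of them were below 0 in the difference, as were 27 of 36 replication genes with 1 above. CDC20 gave a difference of -2.26 ± 0.21 (adjusted p = 2.2e-06) and BUB1 of -1.80 ± 0.13. Lysosome genes were above in 13 of 26 and below in 3, with CTSB at 1.35 ± 0.11 and PSAP at 1.04 ± 0.10. MAPK feedback genes were above in 12 of 20 and below in 5. WNT genes were below in 20 of 36, mesenchymal genes in 11 of 20, epithelial genes in 12 of 25 and Notch genes in 11 of 24. Splicing factors, with 4 above and 8 below of 30, and cytosolic ribosomal proteins, with 2 and 0 of 30, had shares near or under those over all genes.

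Single genes of the contrast show the range. SAA1 went from 0.798 ± 0.195 to 1.03 ± 0.0653 CPM in H1299, a difference of 6.07 ± 0.32 (adjusted p = 1.2e-08), and TFPI2 gave 4.46 ± 0.10. NNMT, which fell in H1703, rose in H1299 from 0.371 ± 0.0220 to 0.951 ± 0.113 CPM (difference -6.47 ± 0.24). C3 had no count with DMSO in H1299 and 2.53 ± 0.555 CPM with SAHA, so its rise there started from 0 (difference -6.11 ± 0.63). HSPA5, up in H1703, gave a difference of 1.21 ± 0.10. Genes at 0 or near 0 in 1 line make the fitted difference depend on that floor, and such values are no bounds.

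**Figure D5:**
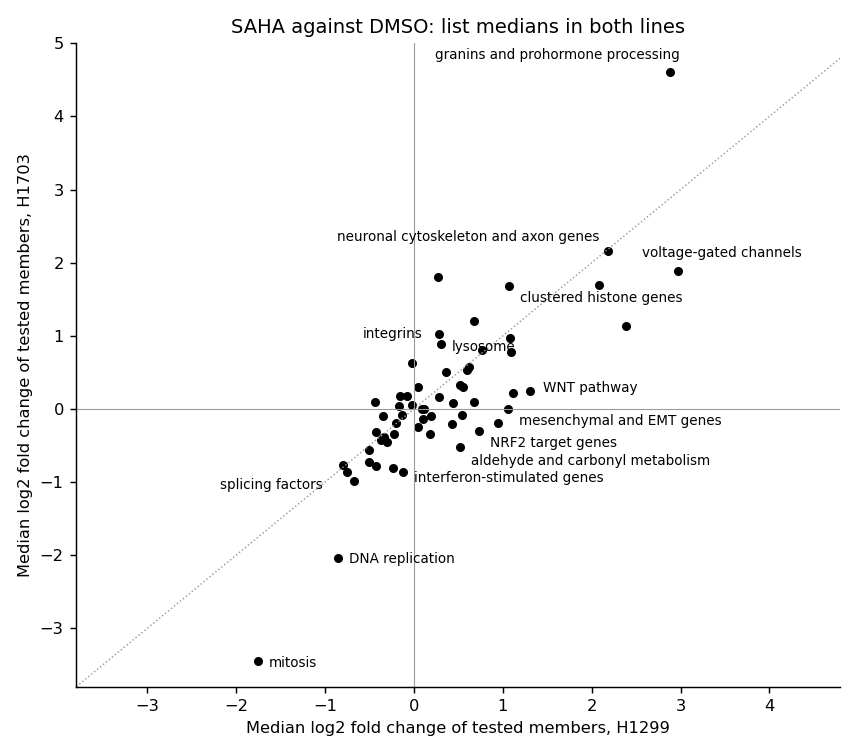
Median log2 fold change of each gene list in H1299 (horizontal axis) and in H1703 (vertical axis), each line against its own DMSO libraries. Lists with few members tested in either line are not drawn. The mitosis list is lower in H1703, and the NRF2 target list is above 0 in H1299 and at -0.30 in H1703.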

How the data were processed

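RNA of 12 libraries, 3 per line and treatment, was sequenced, and the 6 H1703 libraries were compared. Per the file headers, the authors deposited raw counts and FPKM per gene and library in 1 table for each line, with no library pooled. The tools listed in the submitters' processing notes are edgeR 3.30.3, HISAT2 2.1.0, StringTie 1.3.3b, FastQC 0.11.9 and fastp, with the build GRCh38. The sources used here do not say which program made the counts or on which annotation release. FPKM values, as deposited, were used only for levels per length.

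Counts were tested with edgeR 4.0.16 (R 4.3.3; quasi-likelihood, robust, TMM scaling) after filterByExpr with a minimum count of 10 and a minimum total of 15, without a replicate term. SE is the log2 fold change divided by the square root of F. P-values were adjusted over all genes tested by Benjamini-Hochberg, with 0.05 as the threshold. Differences between the lines were tested in 1 fit over 12 libraries. CPM were scaled over these 12 libraries. DESeq2 1.42.0, other scalings, filters, a replicate block and leaving out each library were the alternatives. The procedure was tested on simulated data in which few well-expressed genes changed, evenly in both directions. In these data 67.4% of genes were called, so the simulation does not check scaling or calls in so wide a response. No 2 libraries agreed within sampling noise.

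The groups came from the labels. The 73 lists (1606 distinct genes, 1386 tested) were chosen with earlier results of these data known, as was the comparison. Their members and medians stand beside those over all genes tested. Genes were named by smallest adjusted p in each direction and highest DMSO level per list and level class, by largest gain or loss in CPM, by difference between the lines and by a fixed set. A further number were chosen after their values were seen, among them the members that went against their list and the tissue examples. Some members of the lists are counted but not reported here by name.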

Additional observations from a re-analysis of the deposited data

Results flagged for a closer look

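The response to SAHA differed between the lines for 2623 genes above H1299 and 4049 genes below it, by edgeR's test of the difference between the 2 log2 fold changes over 12 libraries. The values that follow are log2 differences, H1703 minus H1299, for the genes with the largest of these differences. Whether the lines received equal doses is not given.

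On the positive side, several genes had no DMSO count in H1703 and were already present in H1299. MME, a neutral endopeptidase, had a difference of 9.57, with 0 CPM and 3.43 CPM in H1703 and 138 CPM and 81.3 CPM in H1299, DMSO first. KRTAP2-3 had a difference of 7.80 and KRTAP2-4, its neighbour in the hair keratin-associated family, one of 6.79, and both rose from above 0 in H1299. The lincRNA LINC01419 gave 7.08 and GTSF1, a piRNA pathway factor, 6.67. LAMA1, a laminin chain, gave 7.31 and JPH1, a junctophilin that overlaps GDAP1 in the table, 7.30, each with 1 count in the DMSO libraries of H1703. SAA1 was measurable in all groups, with a difference of 6.07. Apart from SAA1, these differences rest on a DMSO group at 0 or 1 count and are no bounds.

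On the negative side, most of the genes were expressed in H1703 and had no DMSO count in H1299. LBH, a developmental transcription cofactor, gave -11.03, with 73.8 and 56.9 CPM in H1703 and 0 and 12.4 CPM in H1299, DMSO first. NTRK3 gave -10.11, CPLX2 -10.02, the tumour suppressor gene LZTS1 -9.65, the death-associated kinase DAPK1 -9.03, the mitochondrial acetyl-CoA synthetase ACSS1 -8.84 and the tensin TNS4 -8.78, all from 0 DMSO counts in H1299. AKR1B10 gave -10.09, from 0.117 to 4.73 CPM in H1299 and from 1249 to 43.6 CPM in H1703. LZTS1 was higher with SAHA in both lines, at 20.8 and then 36.8 CPM in H1703.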

How the results depend on the processing

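With DESeq2 in place of edgeR, 5960 genes were called higher and 5320 lower, and with DESeq2's size factors in edgeR (RLE) 6097 and 5519. Library totals alone gave 5399 and 6345, with the median over all genes moved by -0.10 on the log2 scale and 46.0% of calls higher in place of 51.6%. The fit without mitochondrially encoded genes gave 5966 and 5644, no filter 7008 and 5858, a stricter filter 4875 and 4827, and 1 fit over 12 libraries 6367 and 5788. Leaving out 1 library gave 5739 to 6011 higher and 5265 to 5653 lower. Same-numbered libraries did not deviate together (correlations -0.03, 0.05 and 0.01), and a fit with the replicate block gave 5847 and 5475. At 2-fold or more, 2241 genes rose under the stricter filter, which tests fewer low genes. For genes at 1 to 10 CPM the median log2 ratio of 0.03 became 0.0497 with classes from DMSO replicate 1, 0.0690 with classes from H1299 and -0.1452 with classes by FPKM. From 10 to 100 CPM these were -0.1086 by H1299 and -0.2007 by FPKM, from 100 to 1000 CPM -0.1917 and -0.1198, and at 1000 or more 0.4936 by FPKM in place of -0.09. The cause was not tested. With 30 counts as the minimum, 60 genes were gained and 0 lost, and with libraries thinned to 15.2M counts 172 and 5. Of 211 genes named, 186 had the same direction and side of the threshold under all 14 alternatives. Values near 0 changed sign. HDAC2 was 0.01076 with DESeq2, 0.01075 with RLE and 0.02527 with the stricter filter, and -0.0452 to 0.02197 with 1 library left out. PRIM2 was -0.05343 with library totals and -0.0004039 to 0.08393 with 1 library left out, and KRT18 -0.03957 and -0.0342 to 0.1414. BCL2L2 and BIRC2 lost their calls only in the fit over 12 libraries. Differences between the lines numbered 3163 above and 3749 below with DESeq2 and 3033 and 3646 with RLE. Depth limits statements on low genes: 3 counts over a group of 3 libraries was the floor used.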
